A study of Homo sapiens with 12 samples.

Results

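The genes described here encode MYC, MYCN and MYCL, their partner MAX, the repressors MXD1, MXD3, MXD4, MXI1 and MNT, and MLX, a relative of MAX. They were taken by name from the deposited expression table, in which all 10 were found among 38516 genes. RNA sequencing had been done on KYSE150 and KYSE510 cells, both cultured lines from squamous carcinomas of the human esophagus. Each line had 3 control libraries and 3 libraries labelled as silenced for HCP5, a long non-coding RNA gene, so 12 libraries in 4 groups were compared. The series title places c-Myc (gene MYC) downstream of HCP5, through the protein UTP3. The library titles begin with shc for controls and with sh4 for silenced libraries, in both lines. The labels do not spell out the reagents behind these prefixes. All silenced libraries share the sh4 prefix, so whether a change was particular to that reagent was not tested. The labels also do not say whether replicates were separate cultures or clones. P-values therefore measure the spread between these libraries, which may be technical.

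MYC proteins bind DNA as dimers with MAX, at a short palindrome called the E-box, and raise transcription there. MXD1, MXD3, MXD4, MXI1 and MNT compete for MAX and for the same sites, and bring the SIN3 corepressor with its histone deacetylases. MLX pairs with MXD1, MXD4 and MNT and, in a parallel arm that responds to glucose, with MLXIP (MondoA) and MLXIPL (ChREBP). In proliferating epithelium MYC is known for driving growth and ribosome production, and MXD1 for accompanying differentiation.

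The promoters of the network genes were searched for the E-box. Promoter sequences from RefSeq (GRCh38.p14, 250 bases before to 50 after each start site) matched 9 of the 10 genes, with 12 promoters in all, and there was no entry for MYC. The word CACGTG, which reads the same on both strands, was found in 3 of these 12, and in 7.26% of the 35116 promoters of the same length in the table. These 3 are shown because they belong to genes of the repressor and MLX arms, with the E-box in capitals and read 5′ to 3′ on the strand of the gene.
MXD4 (chr4:2262330-2262359, minus strand): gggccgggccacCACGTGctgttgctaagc
MNT (chr17:2401236-2401265, minus strand): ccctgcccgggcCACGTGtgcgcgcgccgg
MLX (chr17:42567038-42567067, plus strand): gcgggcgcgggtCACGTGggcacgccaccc
The palindrome began 238 bases before the start site in MXD4, 193 before it in MNT and 50 before it in MLX. A match is a description of these letters and not evidence of binding.

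The libraries held 20035025 to 28202422 reads assigned to genes, and in KYSE150 every silenced library was deeper than every control. Reads per library ran from 288 to 6679 for MYC, from 2233 to 4375 for MAX, from 173 to 628 for MXD1 and from 57 to 174 for MXD4. All 7 squamous markers examined (KRT5, KRT14, KRT6A, TP63, SFN, DSG3 and CDH1) had a mean of at least 1 RPKM (reads divided by exon length and by the library's total of gene reads) in both lines. Their sum was 935 to 1160 RPKM in KYSE510 controls and 1291 to 1467 in silenced libraries, and its part in the results was not tested. Summed markers of fibroblasts and of immune cells stayed at or under 0.891 RPKM in each library. Of the endothelial markers, CDH5 had a mean of 1.55 RPKM in KYSE510 controls, while PECAM1 and VWF stayed under 0.1 in all group means. On the second principal component, with 5.43% of the variance, KYSE150 control replicate 3 lay between silenced replicates 1 (-2.97) and 2 (14.5), so it stood apart from control replicates 1 (-22.2) and 2 (-34.1). Results in KYSE150 are given with and without that library where it matters.

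HCP5 itself was low, with 26 to 147 reads per library. Its RPKM in KYSE150 controls 1, 2 and 3 was 0.779, 0.745 and 0.786, against 0.315, 0.418 and 0.579 after silencing. KYSE510 controls had 0.914, 1.85 and 1.40, against 0.505, 0.951 and 0.948 in silenced libraries. The silenced library was lower in each of the 6 same-numbered pairs, but neither line passed 0.05 with limma over all genes (adjusted p of 0.267 and 0.646). With the replicate block (replicate number within a line as a term of the model) they were 0.0556 and 0.134. Averaged over lines the change of HCP5 was -0.49 on the log2(RPKM + 0.5) scale (SE 0.14), with a limma adjusted p of 0.185. Under the block this p was 0.0295, where 2.74% of all genes passed.

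**Figure D1:**
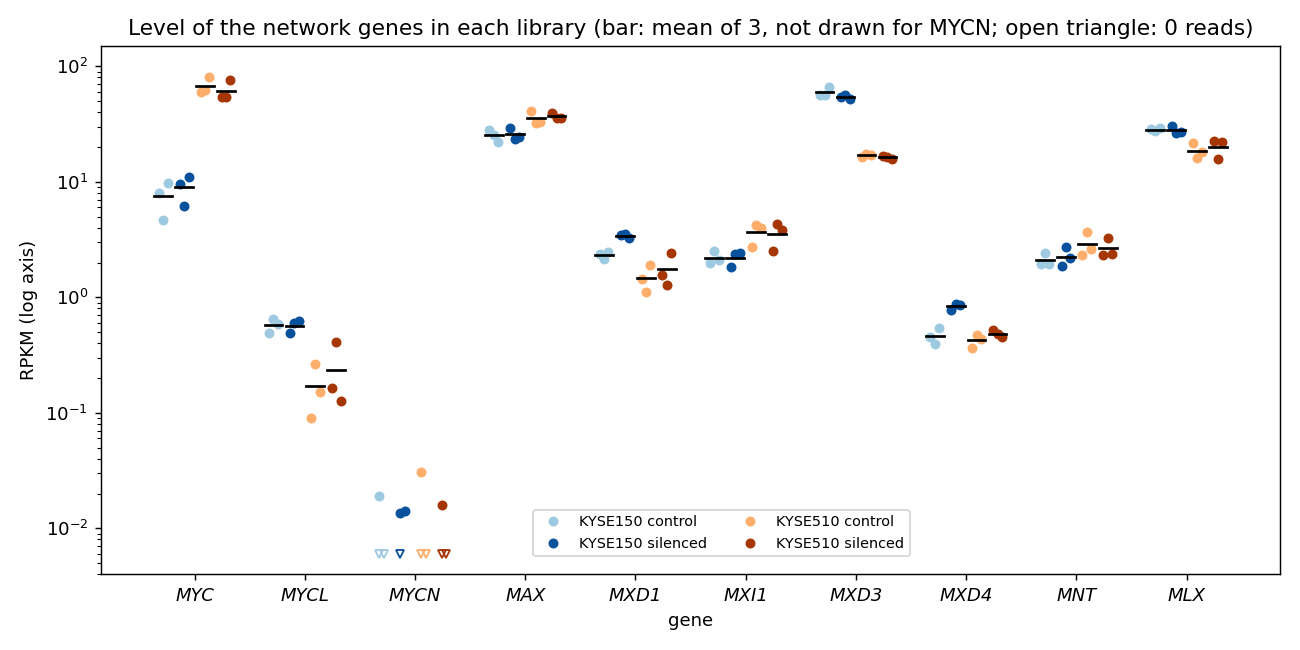
RPKM of each network gene in each library on a log axis, with 3 points per group, a bar at the mean (not drawn for MYCN) and open triangles for libraries with 0 reads. MYC lies at 4.67 to 11.1 in KYSE150 and at 53.8 to 80.9 in KYSE510, while MXD3 and MYCL lie lower in KYSE510 than in KYSE150.

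Most network genes differed between the control libraries of the lines. In KYSE510 MYC was the most abundant member, and in KYSE150 it ranked behind MXD3, MLX and MAX. MYC was 9.03-fold higher in KYSE510 by mean RPKM. MAX and MXI1 were also higher there, and MXD3, MYCL, MLX and MXD1 were lower. Of the 9 members that passed the filter on low values (0.5 RPKM or more in 3 or more libraries), 3 were higher in KYSE510, 4 were lower, and MXD4 and MNT did not pass 0.05 (limma, Benjamini-Hochberg adjustment over 17823 genes). The background was high, since 62% of all genes tested differed between the lines, 28.3% higher and 33.7% lower in KYSE510. Counts in 1 direction of 3 and 4 among 9 members are read against those shares. In such bulk RNA, fewer expressing cells and less RNA per cell cannot be told apart.

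Among the MYC genes, MYC (chromosome 8, 127735434 to 127741434, plus strand) was at 7.97, 4.67 and 9.76 RPKM in KYSE150 controls 1, 2 and 3 and at 59.6, 61.8 and 80.9 in KYSE510 controls. The lowest KYSE510 library lay far above the highest KYSE150 library. On the log2(RPKM + 0.5) scale, used for all fold changes here, the difference was 3.14 (SE 0.27; limma adjusted p 1.47e-06). MYCL (chromosome 1, 39895426 to 39902256, minus strand), the member first found in lung cancer, was at 0.493, 0.645 and 0.592 in KYSE150 controls and at 0.0903, 0.266 and 0.151 in KYSE510 controls. These groups did not overlap, and MYCL differed by -0.69 (SE 0.16; limma adjusted p 0.00249). The MYCL values rest on 11 to 85 reads per library, and the gene shares 226 of its 5063 exon bases with RP1-118J21.5 on the opposite strand, which also differed by -1.06 (SE 0.27). MYCN (chromosome 2, 15940564 to 15947007, plus strand), the neuroblastoma member, had 6 reads in all 12 libraries together, at most 2 in any. It was not tested, and 3 reads would correspond to 0.0409 to 0.0575 RPKM, so higher levels of MYCN were not detected at this depth.

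MAX (chromosome 14, 65006174 to 65102695, minus strand), the obligate partner, was at 28.3, 25.3 and 22.2 RPKM in KYSE150 controls and at 41.1, 32.5 and 33.0 in KYSE510 controls, again without overlap. The difference was 0.48 (SE 0.12; limma adjusted p 0.00471). RP11-840I19.3, which shares 184 of the 4430 exon bases of MAX on the opposite strand, differed by 0.68 (SE 0.08). The order of MYC and MAX was opposite in the lines. MAX stood 2.27 to 5.41 times above MYC in KYSE150 controls, and MYC stood 1.45 to 2.45 times above MAX in KYSE510 controls. MYC made up 3.83% to 7.23% of the summed RPKM of the 10 genes in KYSE150 controls and 41.0% to 51.2% in KYSE510 controls. That sum includes MXD3, whose value is uncertain, as described below. MYC was 0.627 to 1.38 times the sum of MXD1, MXD4, MXI1 and MNT in KYSE150 controls. In KYSE510 controls it was 6.49 to 9.03 times that sum. These ratios describe transcripts scaled to exon length and carry no test.

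**Figure D2:**
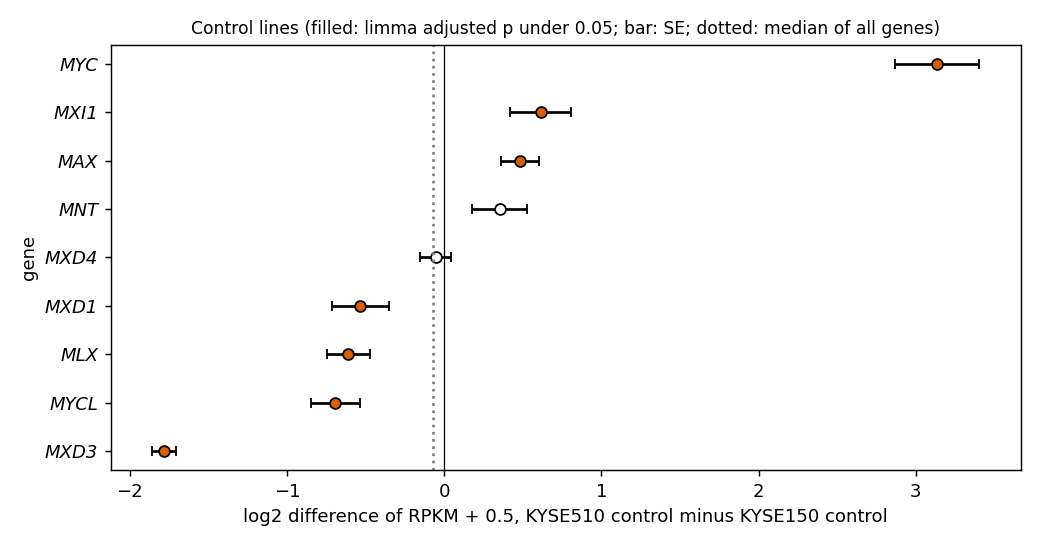
Log2 difference of RPKM + 0.5 between the control libraries of the lines (KYSE510 minus KYSE150) for the 9 tested genes, with the SE of the limma fit, filled points under an adjusted p of 0.05 and a dotted line at the median of all genes. MYC stands at 3.14 and MXD3 at -1.78, and MXD4 lies next to 0.

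The repressors differed between the lines in both directions. MXD3, the family member linked to proliferating cells, was the most abundant network gene in KYSE150 controls, at 56.2, 56.4 and 66.5 RPKM, against 16.4, 17.5 and 17.0 in KYSE510 controls. Its difference was -1.78 (SE 0.08; limma adjusted p 4.63e-09). This value is uncertain as a measure of MXD3, because the gene (chromosome 5, 177301461 to 177312757, minus strand) shares 22.5% of its 5154 exon bases with PRELID1 on the opposite strand and 18.0% with RAB24 on the same strand. PRELID1, which moves lipid between mitochondrial membranes, was at 217 to 279 RPKM in KYSE150 controls and at 77.0 to 83.5 in KYSE510 controls. It differed by -1.59 (SE 0.09), close in size to MXD3, and RAB24 by -0.91 (SE 0.15). The labels do not say whether strand was used in counting, so the part of PRELID1 reads in the MXD3 value was not tested.

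**Figure D3:**
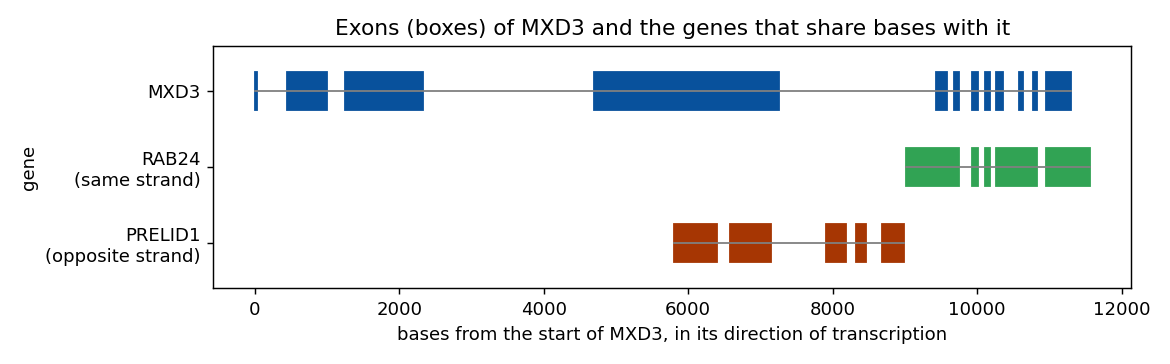
Exons of MXD3, RAB24 and PRELID1 as listed in the deposited table, drawn to scale against the distance in bases from the start of MXD3. A long middle exon of MXD3 covers 1158 bases of PRELID1, and the last exons overlap those of RAB24 over 926 bases.

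MXD1 (chromosome 2, 69897688 to 69942945, plus strand), a repressor raised during epithelial differentiation, was at 2.38, 2.15 and 2.46 RPKM in KYSE150 controls and at 1.43, 1.11 and 1.90 in KYSE510 controls. It was lower in KYSE510 without overlap, by 0.53 on the log2 scale (log2 difference -0.53, SE 0.18; limma adjusted p 0.0219). That call was lost without KYSE150 control replicate 1 (0.0558) or 3 (0.0568), or without KYSE510 control replicate 1 (0.0510) or 2 (0.0937). MXD1 shares 237 of its 6351 exon bases with SNRNP27 on the same strand, a splicing factor gene at 36.1 ± 11.1 and 18.6 ± 1.83 RPKM in the KYSE150 and KYSE510 controls (SD, n = 3), a difference of -0.89 (SE 0.20). Its part in the MXD1 value was not tested.

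MXI1 (chromosome 10, 110207605 to 110287365, plus strand), also called MXD2, went the other way. It was at 1.97, 2.50 and 2.11 RPKM in KYSE150 controls and at 2.73, 4.26 and 4.01 in KYSE510 controls, without overlap. The difference was 0.61 (SE 0.19; limma adjusted p 0.0155), and it was lost without KYSE150 control replicate 1 (0.0533) or KYSE510 control replicate 2 (0.0637) or 3 (0.0556). MXI1 shares 205 of its 4607 exon bases with RP11-549L6.3 on the opposite strand, which had at most 5 reads in any library. MNT (chromosome 17, 2384060 to 2401118, minus strand), the most broadly expressed repressor, was at 1.95, 2.42 and 1.96 in KYSE150 controls and at 2.30, 3.70 and 2.61 in KYSE510 controls. These ranges overlapped, and MNT differed by 0.35 (SE 0.17; limma adjusted p 0.0979). RP1-59D14.1, which shares 1065 of the 8728 exon bases of MNT on the opposite strand, differed by 0.36 (SE 0.17). Its part in the MNT value was not tested. MNT passed without KYSE510 control replicate 1 (0.0455). MXD4 (chromosome 4, 2247432 to 2262294, minus strand), a repressor of resting and differentiated cells that shares no exon base with another listed gene, was at 0.453, 0.393 and 0.537 against 0.365, 0.471 and 0.438, a difference of -0.05 (SE 0.10; limma adjusted p 0.656).

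MLX (chromosome 17, 42567068 to 42573239, plus strand) was at 28.5, 27.5 and 29.0 RPKM in KYSE150 controls and at 21.5, 16.1 and 18.0 in KYSE510 controls. All KYSE510 libraries lay below all KYSE150 libraries, and the difference was -0.61 (SE 0.14; limma adjusted p 0.0024). MLX shares 770 of its 4259 exon bases with PSMC3IP on the opposite strand, which differed by -0.36 (SE 0.14). Of the other genes of the MLX arm, TXNIP and MLXIPL differed more than MLX, and MLXIP and ARRDC4 did not pass. TXNIP, an inhibitor of glucose uptake and the best known MondoA target, was at 0.0138 RPKM or less in each KYSE150 control and up to 7.92 in KYSE510 controls, where its mean was 5.39 ± 2.20 (SD, n = 3), a difference of 3.48 on the log2(RPKM + 0.5) scale (limma adjusted p 6.1e-08), which understates so low a gene. MLXIPL differed by 1.02 (limma adjusted p 0.000215), MLXIP by 0.08 (0.419) and ARRDC4, another MondoA target, by 0.36 (0.0564). MGA, a large repressor that also pairs with MAX, differed by -0.63 (limma adjusted p 3.52e-05). Of these 5 genes, 2 were higher and 1 was lower in KYSE510, beside 28.3% and 33.7% of all genes. TXNIP and MLX, the latter not among the 5, differed in opposite directions.

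Within each group some neighbours in the order of levels could not be separated. In KYSE150 controls MLX and MAX overlapped, as did MXD1, MXI1 and MNT, and MYCL and MXD4. In KYSE510 controls MLX and MXD3 overlapped, and MXI1 and MNT. After silencing MXD1 stood clear above MNT and MXI1 in KYSE150, and MXD4 stood clear above MYCL. In all 4 groups MYCN was lowest.

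With HCP5 silencing, 0 of the 9 tested members passed 0.05 in either line with limma, against a background of 0.499% of all genes for KYSE150 and 0.0393% for KYSE510. Without adjustment, MXD1 and MXD4 (2 members) had a limma p under 0.05 for KYSE150, as did 3224 of the 17823 genes tested. For KYSE510 this held for 0 members and for 1132 of all genes. Same-numbered libraries tended to deviate together, a pairing inferred from these same data, since the labels give only numbers. With the replicate block 3 of 9 members passed in KYSE150 (MYC, MXD1 and MXD4, all higher), against 6.7% of all genes (5.04% higher). Voom on recovered reads called MXD4 without the block, where 128 of the 17823 genes passed. With the block it called MYC, MXD1 and MXD4, where 3381 of all genes passed, 2591 of them higher. When each library was centred on its median and the block was kept, 0 members passed. Centring moved the median of all genes in KYSE150 from 0.08 to -0.05 on the log2 scale. It turned the balance of calls with the block from 898 higher and 296 lower to 332 and 517. For KYSE510 0 of 9 members passed in these fits, where 0.112% of all genes passed with the block, and control and silenced libraries of all 9 overlapped, while 12.1% of all genes did not overlap.

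**Figure D4:**
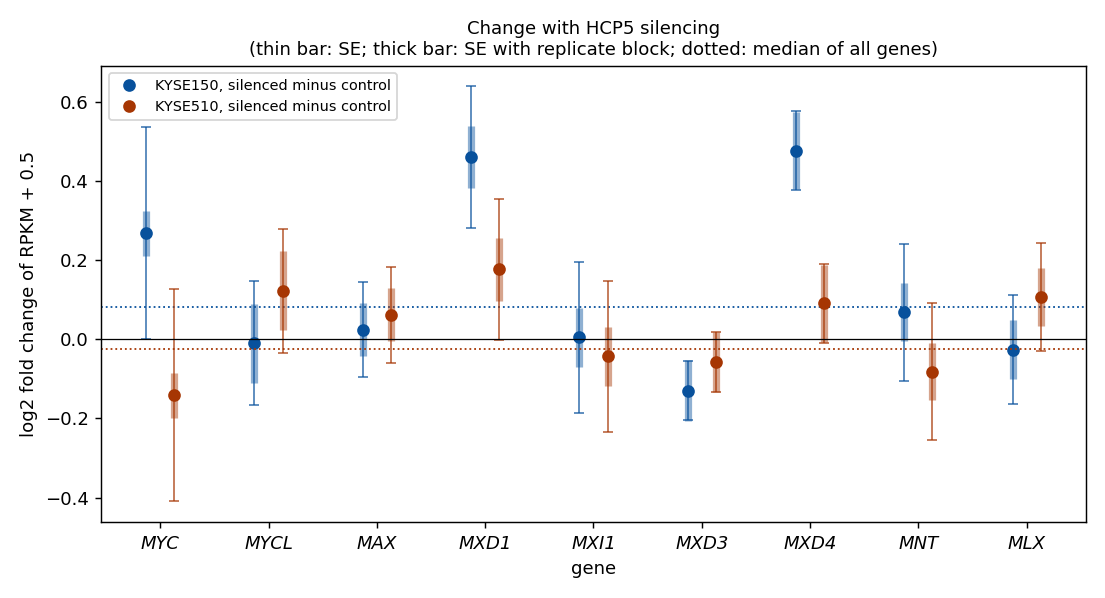
Log2 fold change of RPKM + 0.5 with silencing for the 9 tested genes in KYSE150 (blue) and KYSE510 (brown), with the SE of the limma fit as a thin bar, the SE with the replicate block as a thick bar and dotted lines at the medians of all genes. MXD1 (0.46) and MXD4 (0.48) stand highest in KYSE150, and MYC lies above 0 in KYSE150 and below it in KYSE510.

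MXD4 was the member with the largest change in KYSE150, next to MXD1, but not in KYSE510 or averaged over lines. In KYSE150 it was at 0.453, 0.393 and 0.537 RPKM in controls and at 0.776, 0.874 and 0.856 after silencing. All silenced libraries lay above all controls, which held for 13.7% of genes tested, and the mean was 1.81-fold that of controls. MXD4 had a change of 0.48 on the log2 scale (SE 0.10). Its adjusted p (limma) was 0.0645, or 0.0409 under the replicate block, or 0.0316 without KYSE150 control replicate 3. Over all alternatives this p ran from 0.00343 to 0.238. The change was 0.86 with voom, which adds a smaller offset to low values. In KYSE510 MXD4 was at 0.365, 0.471 and 0.438 in controls and at 0.520, 0.483 and 0.450 after silencing, with overlap and a change of 0.09 (SE 0.10; adjusted p 0.951 with limma).

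MXD1 had the same pattern at a higher level. In KYSE150 it was at 2.38, 2.15 and 2.46 RPKM in controls and at 3.44, 3.51 and 3.23 after silencing, without overlap and 1.46-fold by mean. Its change was 0.46 in log2 units (SE 0.18; limma, adjusted p 0.223, or 0.0314 under the replicate block). The range of this p over alternatives was 0.00223 to 0.532. Over the fits that left out 1 library the change of MXD1 ran from 0.41 to 0.49. The summed squamous markers were at 960 to 1554 RPKM in KYSE150 controls and at 1202 to 2594 after silencing, and their part in the MXD1 value was not tested. SNRNP27, the gene that shares bases with MXD1, had a change of -0.14 (SE 0.20) in KYSE150. In KYSE510 MXD1 was at 1.43, 1.11 and 1.90 in controls and at 1.56, 1.29 and 2.42 after silencing. These ranges overlapped, and its change was 0.18 in log2 units (SE 0.18; limma adjusted p 0.946), or -0.02 without KYSE510 silenced replicate 3. Exact two-sided permutation of the 6 libraries of KYSE150 gave 0.1 for MXD1, MXD4 and MXD3, the smallest value possible.

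Comparing libraries of the same number, MXD1 and MXD4 were each higher after silencing in 6 of 6 pairs, as were 6.7% of all genes tested. For MXD4, pairs 2 and 3 of KYSE510 differed by only 0.018 and 0.019 on the log2 scale, inside the Poisson intervals of their reads. Averaged over lines 0 members passed, against 0.539% of all genes. The averaged change of MXD1 was 0.32 (SE 0.13; limma, adjusted p 0.361, or 0.0396 under the replicate block, where 2.74% of all genes passed). With the block and centring together it was at 0.0602. The averaged change of MXD4 was 0.28 (SE 0.07; adjusted p 0.128 with limma, or 0.082 under the block). Exact permutation within lines, over 400 arrangements, gave 0.045 for MXD1, 0.01 for MXD4 and 0.02 for MXD3, which was lower after silencing, where 0.005 is the smallest possible. For the other tested members it was 0.615 or more, and these values are not adjusted for the number of genes. The arrangements ignore replicate numbers. No share of all genes stands beside these values, so they are not read as a result about the members. The change in KYSE510 minus that in KYSE150 was -0.39 (SE 0.14; limma adjusted p 0.394) for MXD4 and -0.28 (SE 0.25; 0.600) for MXD1, so a difference in response between lines did not pass for either gene.

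**Figure D5:**
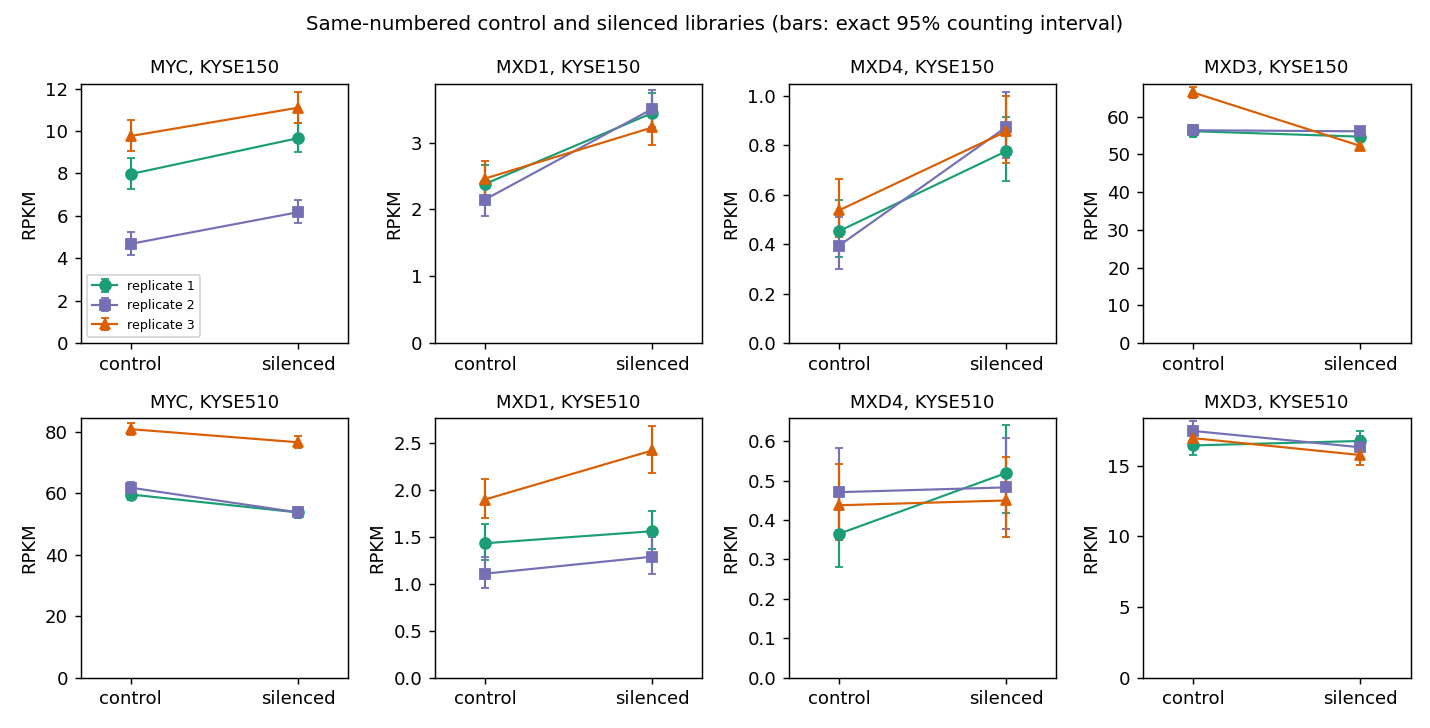
RPKM of MYC, MXD1, MXD4 and MXD3 in control and silenced libraries of each line, joined by replicate number, with exact 95% Poisson intervals of the reads. The MYC lines run nearly parallel within each line at different heights, and the MXD1 and MXD4 lines slope up in all 3 pairs of KYSE150.

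MYC varied more between replicate numbers than with silencing. In KYSE150 it was at 7.97, 4.67 and 9.76 RPKM in controls 1, 2 and 3 and at 9.66, 6.17 and 11.1 in silenced libraries 1, 2 and 3. Replicate 2 was lowest and replicate 3 highest in both groups, and the groups overlapped. The silenced library was higher in 3 of 3 pairs, by 0.26, 0.37 and 0.18 on the log2 scale, which was also seen in 37.4% of all genes. Its change was 0.27 in log2 units (SE 0.27, or 0.06 with the replicate block; adjusted p 0.620 with limma, or 0.0439 under the block). With the block and centring together it was 0.14 (0.162). Without KYSE150 control replicate 2 it was -0.01. Over the 12 fits that left out 1 library it ran from -0.01 to 0.50, with limma adjusted p-values of 0.269 or more.

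In KYSE510 MYC was at 59.6, 61.8 and 80.9 RPKM in controls and at 53.8, 53.8 and 76.6 after silencing, so replicate 3 was again highest in both groups. The silenced library was lower in 3 of 3 pairs, by -0.15, -0.20 and -0.08, as in 21.8% of all genes. The opposite signs of both lines together were seen in 7.79% of all genes. Its change was -0.14 in log2 units (SE 0.27; adjusted p 0.975 with limma, or 0.355 under the replicate block). Mean MYC was 7.47 ± 2.58 and 8.98 ± 2.54 RPKM in control and silenced KYSE150 libraries, and 67.5 ± 11.7 and 61.4 ± 13.2 in those of KYSE510 (SD, n = 3). MYC stood above MAX in all 6 KYSE510 libraries and below it in all 6 of KYSE150, whatever the treatment.

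MXD3 was at 56.2, 56.4 and 66.5 RPKM in KYSE150 controls and at 54.7, 56.1 and 52.3 after silencing. The groups did not overlap, as in 5.47% of all genes with silenced libraries below, but 56.2 and 56.1 lay side by side and 1 control library carried most of the gap. Its change was -0.13 in log2 units (SE 0.08; limma adjusted p 0.380), and -0.05 without KYSE150 control replicate 3. In KYSE510 it was at 16.4, 17.5 and 17.0 against 16.8, 16.3 and 15.8, a change of -0.06 (SE 0.08; limma adjusted p 0.963). PRELID1 had a change of 0.08 (SE 0.09) in KYSE150 and -0.09 (SE 0.09) in KYSE510.

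For each of the remaining members the change was smaller than its SE. MAX was at 29.2, 23.4 and 24.5 RPKM after silencing in KYSE150 and at 39.6, 35.4 and 35.9 in KYSE510, with log2 fold changes of 0.02 (SE 0.12) and 0.06 (SE 0.12). MLX was at 30.4, 26.3 and 27.0, and at 22.6, 15.8 and 22.0, with changes of -0.03 (SE 0.14) and 0.11 (SE 0.14). MXI1 was at 1.82, 2.37 and 2.44, and at 2.53, 4.29 and 3.86, with changes of 0.005 (SE 0.19) and -0.04 (SE 0.19). For these 3 genes and the repressor MNT, silenced and control libraries overlapped in both lines. MNT was at 1.87, 2.70 and 2.17, and at 2.34, 3.27 and 2.37, with changes of 0.07 (SE 0.17) and -0.08 (SE 0.17). MYCL was at 0.488, 0.595 and 0.623, and at 0.165, 0.412 and 0.127, with changes of -0.01 (SE 0.16) and 0.12 (SE 0.16). Limma adjusted p-values of these 5 genes were 0.878 or more in both lines, and MAX, MXI1 and MNT changed sign in KYSE150 under centring. Over the 9 tested members the median change was 0.02 in KYSE150 and 0.06 in KYSE510, beside medians over all genes of 0.08 and -0.02.

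The pattern of MYC over libraries, apart from its level in each line, was compared with that of 12357 genes with a mean of at least 1 RPKM in both lines. Pearson correlations of log2 values over 12 libraries, after removing the mean of each line, were highest for CAPN15 (0.950), CD9 (0.946), JUP (0.945), ORC5 (0.936) and WDR13 (0.935). JUP encodes plakoglobin, an adhesion protein of desmosomes, and CD9 a membrane tetraspanin. JUP ran from 13.9 to 37.1 RPKM over the KYSE150 libraries and from 34.2 to 48.0 over those of KYSE510. The lowest were HSP90AA1 (-0.941), PSMC5 (-0.937) and DNAJB4 (-0.928), which are genes of a chaperone, a proteasome subunit and a chaperone partner. Among members, MXD1 stood at 0.502, MLX at 0.157, MXD3 and MXI1 at -0.003 and -0.010, MAX at -0.117 and MNT at -0.435. These are descriptions over 12 libraries in which same-numbered libraries deviated together and depth differed, and the median size of such a correlation was 0.429 over all genes compared.

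Other genes of the pathway were taken from written lists. Of 11 cofactors of MYC, such as TRRAP, KAT5 and KAT2A, which bring or carry acetyltransferase activity, 0 passed in either line with limma or with the replicate block. In KYSE150 this became 1 without KYSE150 control replicate 3 and 2 with voom and the block. Between control lines 3 were higher and 4 lower in KYSE510, beside 28.3% and 33.7% of all genes, with KAT2A (0.43) and RUVBL2 (0.42) highest and KAT5 (-0.54) and PAF1 (-0.41) lowest. Of 12 genes acting on MYC stability, such as FBXW7, the ubiquitin ligase subunit that marks MYC, 0 passed in either line. In KYSE150 the count was 1 in several alternatives, among them voom and the fit without KYSE150 control replicate 3. It was 6 with voom and the block. With the block SKP2 (0.38; limma adjusted p 0.0289), a ligase subunit, and PLK1 (0.32; 0.0369), a mitotic kinase, were higher in KYSE150. FBXW7 had a change of -0.21 in KYSE150 (0.247 without the block). Between control lines 2 of the 12 were higher and 5 lower in KYSE510, GSK3B (0.68) and USP28 (-0.87) being the extremes of each direction. For these lists and those that follow, the share of all genes called is 6.7% for the block on RPKM in KYSE150. It is 62% between control lines. In KYSE150, voom called 128 of 17823 genes, or 3381 with the block. The fit without KYSE150 control replicate 3 called 1291 of 17652.

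Of 12 corepressor genes used by MXD proteins, 0 passed in either line, and with the block 2 were higher in KYSE150 (5.04% of all genes were), the scaffold SIN3B (0.39; limma adjusted p 0.0264) and the histone-binding RBBP4 (0.29; 0.0368). The count in KYSE150 was 1 without KYSE150 control replicate 3 and 2 with voom and the block. SIN3A, the related scaffold, had a change of -0.04 there and HDAC1 one of 0.06. Between control lines 3 were higher and 4 lower (28.3% and 33.7% of all genes), with ARID4A (0.83) and ARID4B (-1.26), paralogous subunits of the SIN3 complex, at the opposite ends. Of the 5 genes of the MLX and MGA arm 0 passed with silencing, and with the block ARRDC4 was higher in KYSE150 (0.40; limma adjusted p 0.0367). TXNIP had a change of 0.02 in KYSE150 and 0.06 in KYSE510.

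Of 28 genes induced by MYC, 1 rose in KYSE150 and 0 passed in KYSE510 with limma, beside the 0.499% and 0.0393% over all genes. The gene that rose was CCND2, a G1 cyclin, whose mean was 34.8 ± 2.69 RPKM in controls and 49.9 ± 4.31 in silenced libraries (SD, n = 3), a change of 0.51 (adjusted p 0.0350 with limma, or 0.0279 under the replicate block). Of the 12 fits that left out a library, 3 kept its call, those without KYSE150 control replicate 3 (0.0268), KYSE150 silenced replicate 1 (0.0406) or KYSE510 control replicate 1 (0.0416), and the highest p of the others was 0.162, without KYSE150 silenced replicate 3. With the block, DKC1 (-0.43; 0.0338) and FBL (-0.29; 0.0458), nucleolar genes of RNA modification, fell in KYSE150. The count was 10 with voom and the block, with 3 higher and 7 lower, and 4 with centring and the block, with 1 higher and 3 lower. Of all 17823 genes, 3381 and 849 passed in these settings. Without KYSE150 control replicate 3 and without the block the count was 4, with 2 higher and 2 lower, where 1291 of 17652 genes passed. The nucleolar genes NCL and NPM1 had changes of -0.45 and -0.28 in KYSE150 (limma adjusted p 0.190 and 0.259). The median over the 28 genes was -0.04 in KYSE150, with 10 above 0, against a median of 0.08 and 66.1% above 0 over all genes. In KYSE510 it was -0.07, with 8 above 0, against -0.02 and 43.0%.

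Between control lines 13 of these 28 genes were higher and 9 lower in KYSE510, beside 28.3% and 33.7% of all genes, and the median was 0.17 against -0.07 over all genes. TFRC, the transferrin receptor (1.38), and the glycolytic gene ENO1 (1.25) were the highest. CCND2 was lowest (-6.03), at 31.8 to 36.7 RPKM in KYSE150 controls and at 0.0349 to 0.0457 in KYSE510 controls, and NOP16 was next (-1.71). Of 8 genes repressed by MYC 6 were tested, and 1 rose in KYSE150: NDRG1, a stress-response gene, whose mean was 3.39 ± 0.989 RPKM in controls and 8.45 ± 1.62 in silenced libraries (SD, n = 3; change 1.22; limma adjusted p 0.0218). Its call was lost without KYSE150 control replicate 1 (0.113) or 2 (0.0766), or silenced replicate 1 (0.0624) or 3 (0.0915). In KYSE510 NDRG1 had a change of 1.11 (adjusted p 0.0776 with limma, or 0.0152 under the block). Averaged over lines the change of NDRG1 was 1.16 (SE 0.13; limma adjusted p 0.00297), where 0.539% of all genes passed. The change in KYSE510 minus that in KYSE150 was -0.11 (SE 0.26; limma adjusted p 0.864). CDKN1A, the p21 gene, had a change of 0.35 in KYSE150 and 0.62 in KYSE510 (limma adjusted p 0.536 and 0.809). Between control lines 0 of the 6 were higher and 3 lower in KYSE510, among them THBS1 (-3.50) and CDKN2B, which was listed at 0 in all 6 KYSE510 libraries and at 1.41 to 2.81 RPKM in KYSE150 controls.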

How the data were processed

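The authors deposited 1 table of RPKM for 12 libraries, with exon positions, strand and summed exon length per gene. HISAT2, DESeq and GRCh38 are named in the submitters' processing notes, with no roles, and the column names are those featureCounts writes, per the file headers. The annotation release, strand setting and filters are not given in the sources used here. RPKM times exon length was a whole multiple of 1 step (within 0.02) for 100% of values in each library, so reads were recovered. Their totals were 20035025 to 28202422. Poisson intervals and the floor of 3 reads cover counting error only.

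Values were analysed as log2(RPKM + 0.5) with limma 3.58.1 in R 4.3.3 (4 group means, eBayes with trend, 8 residual degrees of freedom) over the 17823 genes that reached an RPKM of 0.5 in 3 or more libraries. P-values were two-sided and adjusted by the Benjamini-Hochberg method over all genes, with a threshold of 0.05. Replicate numbers come from the titles. Deviations from group means correlated at 0.147 to 0.415 in 6 same-numbered pairs and at -0.385 to 0.184 in 12 others, so the numbers were taken to pair libraries within a line, and the fit with a replicate block is printed where it changes a call.

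The members and lists were chosen with earlier results of these data known. Named from each list were genes past the threshold with silencing (up to 4), otherwise the first 3 listed, and the extremes between control lines. CIP2A was matched through its older name KIAA1524. The values of 1 listed gene are not reported here. Alternatives were other pseudocounts (0.1 and 1), no filter, centring, quantile normalization, fewer libraries, voom, a threshold of 0.01 and leaving out each library. Voom with the block and centring with the block were added after seeing the data.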

Additional observations from a re-analysis of the deposited data

Results flagged for a closer look

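The response of MYC to silencing pointed in opposite directions in the lines, higher in 3 of 3 same-numbered pairs of KYSE150 and lower in 3 of 3 of KYSE510, which was seen in 7.79% of all genes tested. The change in KYSE510 minus that in KYSE150 was -0.41 on the log2 scale (SE 0.38), with a limma adjusted p of 0.612, of 0.116 with the replicate block and of 0.148 with the block and centring together. It passed in 1 setting, voom on recovered reads with the block (0.0319), where 1353 of all genes passed, against 0 with the block on RPKM. Without KYSE150 control replicate 2 the difference was -0.13. Each MYC value rests on 288 reads or more. For the whole table the corresponding median was -0.12, or 0.04 once libraries were centred, a setting in which MYC stood at -0.25.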

How the results depend on the processing

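Among the 9 tested genes, the count of 0 called in KYSE150 became 3 with the replicate block, 3 with voom and the replicate block, 1 with voom alone, and 0 to 1 on leaving out 1 library. Of all 17823 genes, 89 were called there in the main fit, 1194 with the block, 3381 with voom and the block and 128 with voom alone. Averaged over lines, 0 became 1 with the replicate block and 2 with voom and the block, and for the difference between lines 0 became 1 with voom and the block. The calls over all genes in these settings were 488 and 1295 averaged over lines, and 1353 for the difference. Between control lines 7 became 5 at a threshold of 0.01, and 5 to 7 on leaving out 1 library.

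Set against an alternative, changes of single genes kept direction and side of the threshold in 725 comparisons, came under the threshold in 19, no longer passed it in 23 and changed sign in 31. In KYSE150, MAX was at -0.10 with centring, also with the block, and at -0.021 with quantile normalization. MXI1 was at -0.12 in all 3 of these settings, and MNT at -0.061 with centring, also with the block, and at -0.051 with quantile normalization. Leaving out 1 library gave sign changes in KYSE150 for MYC (-0.015 to 0.50), MYCL (-0.067 to 0.045), MAX (-0.069 to 0.11), MXI1 (-0.058 to 0.11), MNT (-0.047 to 0.17) and MLX (-0.088 to 0.014). In KYSE510 it did so for MYCL (-0.043 to 0.23), MXD1 (-0.025 to 0.33), MXI1 (-0.22 to 0.15) and MNT (-0.22 to 0.087), averaged over lines for MYC (-0.078 to 0.18), and between control lines for MXD4 (-0.11 to 0.0016). Apart from fewer libraries or a stricter threshold, the cause was not tested. Depth limits MYCN, MYCL, MXD4 and HCP5 most.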
